A study of Mus musculus with 18 samples.

Results

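Genes of fatty acid uptake and oxidation were followed through the gastrocnemius and quadriceps of WT mice, of HSA-LR mice and of HSA-LR mice given Pip6a-PMO. The set was a list of 35 gene symbols drawn up from what the proteins are known to do, and its members were found by translating the Ensembl identifier of each counted exon bin into a symbol. The count tables held 31 of the 35 among 46725 genes. Cpt1b, Etfb, Acsl3 and Acad9 were not analysed here. All mice were on the FVB strain and 20 weeks old. The HSA-LR mouse carries a human skeletal actin transgene with expanded CTG repeats, so the toxic CUG RNA is made in skeletal muscle fibers only, and it models myotonic dystrophy type 1 (DM1) in that tissue alone. Pip6a-PMO is a CAG-repeat antisense oligomer coupled to a cell-penetrating peptide and was given intravenously; WT and HSA-LR mice are labelled untreated, and the controls of the protocol received saline. Each of the 6 groups (3 conditions, 2 muscles) held 3 mice, and both muscles came from the same animals, which gave 18 polyA-selected RNA libraries of 98916844 to 143135976 counts.

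Long-chain fatty acids reach a muscle fiber from circulating lipoproteins through lipoprotein lipase and the surface carrier CD36, are bound inside by FABP3, and are coupled to coenzyme A before the carnitine shuttle carries them across the inner mitochondrial membrane. Inside, acyl-CoA dehydrogenases, hydratases, hydroxyacyl-CoA dehydrogenases and thiolases shorten them, passing electrons to the electron transfer flavoprotein. Malonyl-CoA, which malonyl-CoA decarboxylase (Mlycd) breaks down, blocks the carnitine step, and PPAR nuclear receptors drive many of these genes. Slow fibers burn more fat than the fast fibers that make up most of the mouse quadriceps.

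Several properties of the libraries touch these genes and come before the results. WT mouse 2 is labelled female and WT mouse 3 male, yet Y-linked transcripts summed to 155 and 188 CPM (counts scaled to the effective library size, TMM) in the gastrocnemius and quadriceps of mouse 2 and to 1.14 and 1.43 CPM in mouse 3, so these labels go against the data. In the quadriceps, the brown adipocyte genes Ucp1 and Cidea summed to 297 CPM in WT mouse 1, 96.6 CPM in HSA-LR mouse 1 and 277 CPM in HSA-LR mouse 2, against 0.574 to 38.1 CPM in the other quadriceps. The 9 slow fiber markers (Myh7, Myl2, Casq2 and others) summed to 2190 to 6260 CPM in gastrocnemius libraries except treated mouse 1 (17100 CPM), and to 117 to 2340 CPM in the quadriceps. Erythroid markers were high in the gastrocnemius of WT mouse 1 (3860 CPM) and treated mouse 3 (3130 CPM), and at 508 to 1090 CPM in the other gastrocnemius libraries. The 7 muscle fiber markers, Acta1 and Ckm among them, summed to 109000 to 164000 CPM in every library, but single markers moved with the groups at an adjusted P under 0.1 in edgeR. Of the 7, 2 rose and 0 fell in HSA-LR gastrocnemius, 2 rose and 2 fell there on treatment, 1 rose and 2 fell in HSA-LR quadriceps, and 2 rose there on treatment. Among them, the fast myosin Myh1 had a gastrocnemius mean of 4340 CPM in WT, 17000 in HSA-LR and 3250 in treated mice (log2 fold change, FC, of 1.97 in HSA-LR mice and −2.38 on treatment, edgeR adjusted P = 0.00908 and 0.00871). The 5 macrophage markers summed to 38.3 to 52.3 CPM in WT quadriceps, 75.1 to 97.7 in HSA-LR and 37.2 to 53.6 in treated mice, and 5 of 5 rose in HSA-LR mice (median log2 FC 1.15) and fell on treatment (median −1.12). In the gastrocnemius 2 of them rose and then 3 fell. Of 5 endothelial markers, 4 fell in HSA-LR quadriceps (sums of 148 to 185 CPM against 222 to 292 in WT mice). The part of these cells in the levels of the members was not tested. In such whole-muscle RNA, fewer cells of a type and less RNA per cell cannot be told apart.

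All 31 members passed the filter on low counts in both muscles. Per kilobase of counted exon, which could be computed for 25 members, Fabp3 ranked first in WT mice of both muscles, at 388 ± 200 CPM per kilobase in the gastrocnemius and 371 ± 120 in the quadriceps (SD, n = 3). Acadvl, the very-long-chain acyl-CoA dehydrogenase, followed at 194 ± 51 and 235 ± 38 CPM per kilobase, and the ranges of 1 SD of the 2 genes overlapped. At the other end, the receptor gene Ppara lay at 1.46 ± 0.685 and 2.45 ± 0.983 CPM per kilobase. In the HSA-LR quadriceps, Fabp3 (145 ± 17.7) lay beneath Acadvl (176 ± 29.7) on this scale, again within their spread.

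Levels of the members rose and fell together from mouse to mouse within a group. In the WT gastrocnemius, mouse 1 had the lowest level of the 3 mice for 27 of 31 members and mouse 3 the highest for 22. In treated mice, mouse 3 was lowest for 26 members in the gastrocnemius and for 29 in the quadriceps, and treated mouse 2 was highest for 28 in the quadriceps. HSA-LR mouse 2 was lowest for 24 members in the gastrocnemius and highest for 24 in the quadriceps. For a typical member, the highest mouse exceeded the lowest by a median ratio of 1.62 in the WT gastrocnemius, 1.2 in HSA-LR, 1.56 in treated mice, and 1.45, 1.36 and 1.36 in the same groups of the quadriceps. Plin5, which coats lipid droplets in oxidative tissue, varied 4.23-fold among WT mice of the gastrocnemius and 4.39-fold among treated mice of the quadriceps. Lipe, the hormone-sensitive lipase that is abundant in fat cells, varied 12.1-fold among HSA-LR quadriceps. These spreads set how small a change could be called, and the heatmap of the members shows them as columns mostly of a single color.

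**Figure D1:**
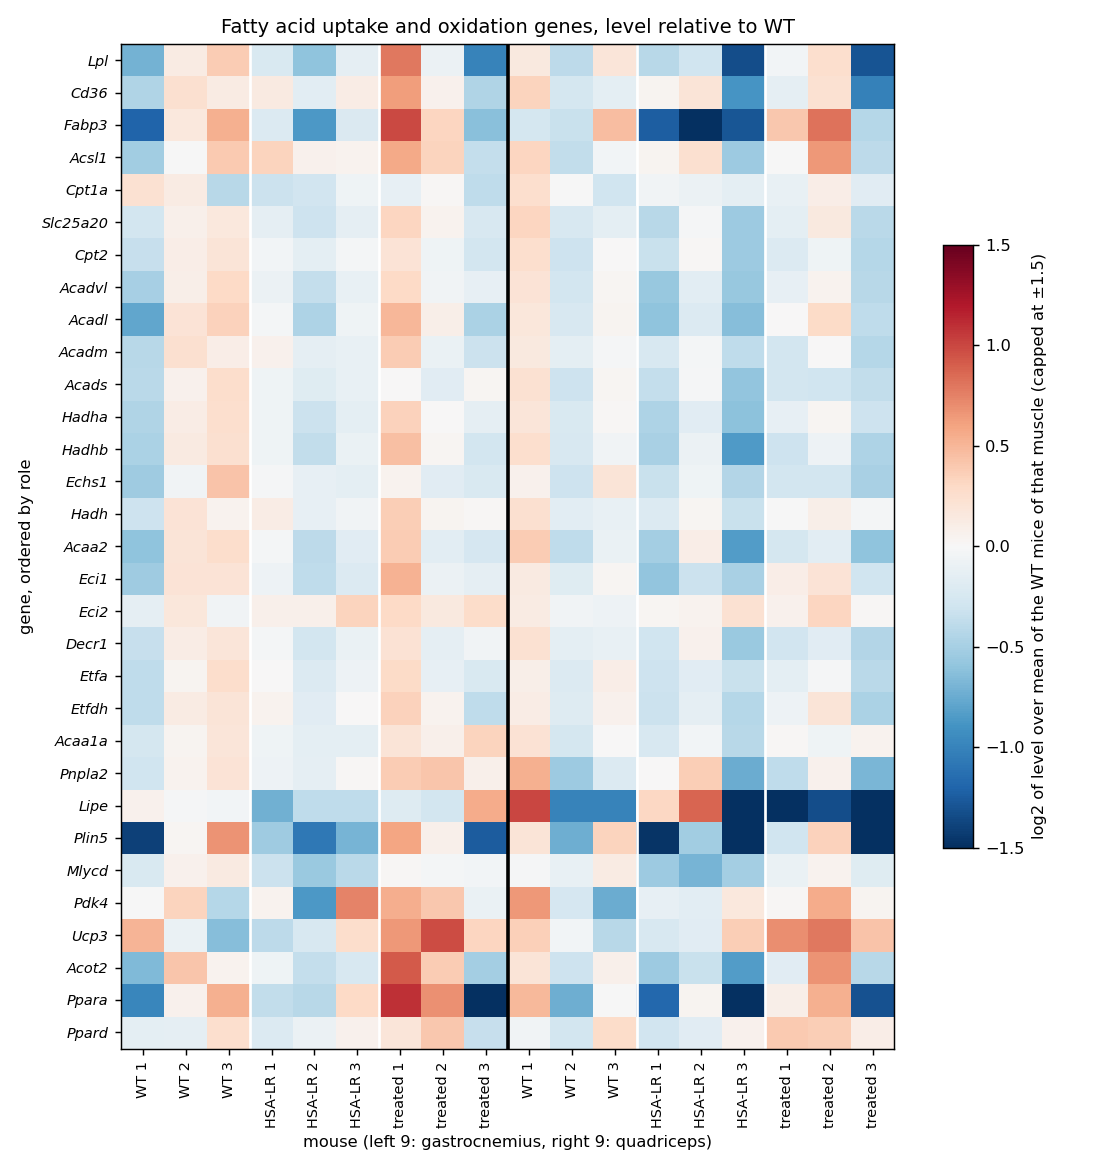
Level of the 31 members in each mouse, as the log2 of the level over the mean of the 3 WT mice of that muscle (colors capped at 1.5 in both directions, red higher, blue lower). Rows are ordered by role and columns are mice, gastrocnemius to the left of the black line. Most of a column shares a color, as in WT mouse 1 of the gastrocnemius and treated mouse 3 of the quadriceps, and the row of Mlycd is blue in all 6 HSA-LR libraries.

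To see how the disease changes these genes, HSA-LR mice were compared with WT mice, and a gene was called at an adjusted P under 0.1 (edgeR's quasi-likelihood test, adjusted over all genes tested). In the gastrocnemius, 1 of 31 members fell and none rose, beside 6.94% of all 15625 genes called lower and 8.60% called higher. In the quadriceps, 3 members fell (Mlycd, Fabp3 and Eci1) and none rose, beside 9.31% called lower and 11.0% called higher among 15574 genes. The share of members called lower was under that of all genes in the gastrocnemius and close to it in the quadriceps. The log2 FC was below 0 in 27 members in the gastrocnemius (median −0.13, all genes −0.01) and in 28 in the quadriceps (median −0.26, all genes 0.01). Groups that did not overlap were seen for 2 members in the gastrocnemius (Lipe and Mlycd) and for 4 in the quadriceps (Eci1, Fabp3, Acot2 and Mlycd), all lower in HSA-LR mice, whereas 36.3% and 33.3% of all genes did not overlap.

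To see what treatment changes, treated HSA-LR mice were compared with untreated HSA-LR mice. In the gastrocnemius, Mlycd rose and no member fell, beside 4.49% of genes called higher and 5.53% called lower. In the quadriceps, Fabp3, Mlycd and Eci1 rose and no member fell, beside 6.54% called higher and 7.22% called lower. The log2 FC was above 0 in 30 members in the gastrocnemius (median 0.24, all genes 0.00) and in 24 in the quadriceps (median 0.19, all genes −0.01). Treated mice lay above all HSA-LR mice for 5 of 31 members in each muscle, against 29.4% of genes not overlapping in the gastrocnemius and 32.1% in the quadriceps. Since both comparisons use the same HSA-LR mice, opposite signs in them are not independent of each other.

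**Figure D2:**
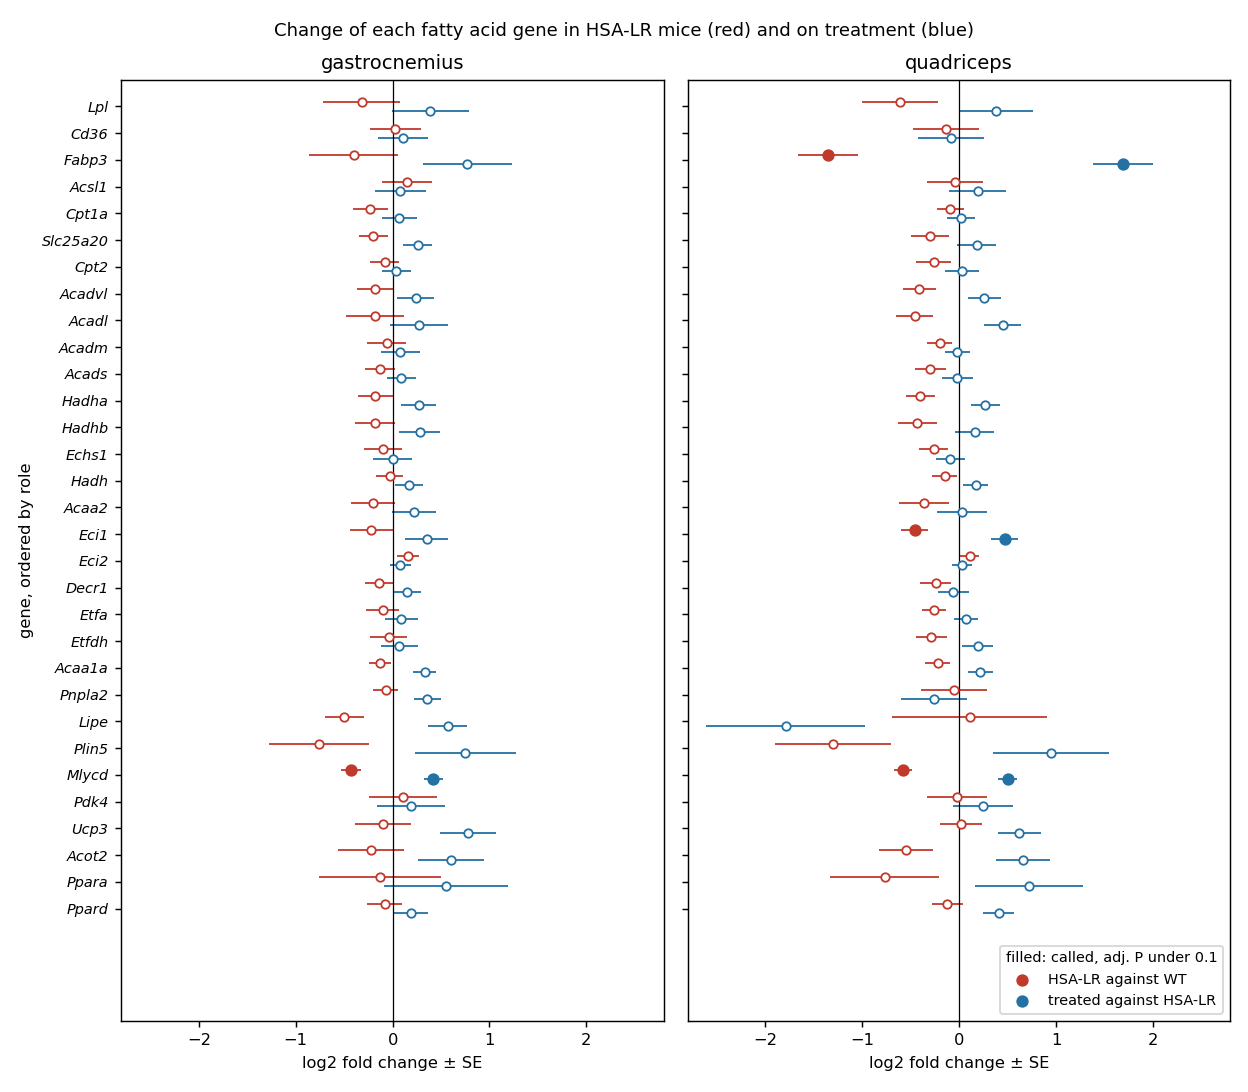
log2 FC (point) with its SE (bar) of each member in HSA-LR against WT mice (red) and in treated against HSA-LR mice (blue), gastrocnemius on the left and quadriceps on the right. Filled points passed an adjusted P under 0.1: Mlycd in both muscles, and Fabp3 and Eci1 in the quadriceps. The widest bars belong to Lipe in the quadriceps and to Ppara and Plin5 in both muscles.

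Mlycd (ENSMUSG00000074064.6; GRCm38 chr8:119394878-119411102, plus strand) was called in all 4 of these comparisons. In the gastrocnemius its level was 45.4, 55.8 and 58.3 CPM in WT mice, 42.4, 36.2 and 40.2 CPM in HSA-LR mice and 53.9, 52.3 and 51.6 CPM in treated mice. Every HSA-LR mouse lay below every WT and every treated mouse, with the WT mouse 1 value closest. Mlycd fell by 0.43 in log2 units in HSA-LR mice (SE 0.10, adjusted P = 0.0273) and rose by 0.42 on treatment (SE 0.10, adjusted P = 0.0506). In the quadriceps its level was 54.1, 50.7 and 59.6 CPM in WT mice, 37.7, 33.7 and 38.5 CPM in HSA-LR mice and 51.3, 56.8 and 48.5 CPM in treated mice, again with no overlap of HSA-LR with either group. The log2 FC was −0.58 (SE 0.095, adjusted P = 0.00579) in HSA-LR mice and 0.50 (SE 0.095, adjusted P = 0.0198) on treatment. Treated and WT mice overlapped in both muscles, with log2 FC of −0.02 and −0.07 (adjusted P = 0.971 and 0.794). The decrease in HSA-LR mice remained called without WT mouse 2 (−0.40 and −0.63) and without WT mouse 3 (−0.37 and −0.51), and in the gastrocnemius it was lost without HSA-LR mouse 2 (−0.38, adjusted P = 0.109). The gastrocnemius increase on treatment was lost without treated mouse 1 or 2 or any HSA-LR mouse (0.36 to 0.47, adjusted P = 0.101 to 0.184) and with the replicate number as a block (0.42, adjusted P = 0.107).

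Fabp3 (ENSMUSG00000028773.8; chr4:130308595-130315463, plus strand), the fatty acid-binding protein of heart and oxidative muscle, had the largest change of any member called. Its quadriceps level was 254, 243 and 420 CPM in WT mice, 130, 103 and 126 CPM in HSA-LR mice and 406, 536 and 228 CPM in treated mice. HSA-LR mice were all lower than the mice of both other groups, which overlapped with each other. Fabp3 fell by 1.35 in log2 units in HSA-LR mice (SE 0.31, adjusted P = 0.0215) and rose by 1.69 on treatment (SE 0.31, adjusted P = 0.018). In the gastrocnemius its level was 139, 357 and 462 CPM in WT mice, 278, 176 and 274 CPM in HSA-LR mice and 634, 398 and 206 CPM in treated mice, and all 3 groups overlapped. There the log2 FC was −0.40 (SE 0.46, adjusted P = 0.651) in HSA-LR mice and 0.77 (SE 0.46, adjusted P = 0.365) on treatment. The difference between the muscles was −0.96 ± 0.61 (SE) for the first change and 0.93 ± 0.61 for the other (adjusted P = 1 and 0.682), so the test did not tell the muscles apart. That fit treated both muscles of a mouse as independent.

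In the quadriceps, Myh2 and the slow fiber markers changed with the same signs as Fabp3, but not every muscle fiber marker did. Myoglobin (Mb), listed with Myh2, went the other way. Its quadriceps mean was 1290 CPM in WT, 2660 CPM in HSA-LR and 1810 CPM in treated mice. Myh2, the myosin of fast oxidative fibers, was at 1290, 1280 and 1970 CPM in WT quadriceps, 593, 391 and 394 CPM in HSA-LR mice and 2730, 3560 and 963 CPM in treated mice. As for Fabp3, HSA-LR mice lay below both other groups (log2 FC −1.72 and 2.39, adjusted P = 0.0273 and 0.0168, edgeR), and the part of this fiber type in the levels of Fabp3 was not tested. The 9 slow fiber markers summed in the quadriceps to 242 to 653 CPM in WT mice, 117 to 246 CPM in HSA-LR mice and 143 to 2340 CPM in treated mice, and none was at 0. Of the 9, none was called in HSA-LR mice (median log2 FC −1.57) and 6 rose on treatment (median 3.76). With the slow fiber level as a covariate, the log2 FC of Fabp3 was −0.88 (adjusted P = 0.0117) in HSA-LR mice and 0.90 on treatment (adjusted P = 0.0434), so both changes stayed called at a smaller size. Under that covariate the quadriceps increase of Mlycd on treatment was lost (0.38, adjusted P = 0.116), while its decreases in HSA-LR mice stayed called (−0.39 in the gastrocnemius, −0.50 in the quadriceps). Without WT mouse 2 or 3, the log2 FC of Fabp3 in HSA-LR quadriceps was −1.49 (adjusted P = 0.0321) or −1.05 (adjusted P = 0.0613).

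Eci1 (ENSMUSG00000024132.5; annotated at chr17:24426641-24439348, plus strand, with exon bins that differ from those counted) encodes a mitochondrial enoyl-CoA isomerase, which moves double bonds so that unsaturated fatty acids can be oxidized. Its quadriceps level was 110, 88 and 102 CPM in WT mice, 66.6, 79.7 and 71.6 CPM in HSA-LR mice and 107, 115 and 81.5 CPM in treated mice. HSA-LR mice did not overlap with either group, although HSA-LR mouse 2 and treated mouse 3 lay close together. Eci1 fell by 0.46 in log2 units in HSA-LR mice (SE 0.14, adjusted P = 0.0592) and rose by 0.47 on treatment (SE 0.14, adjusted P = 0.0777). In the gastrocnemius the values were 68.1, 114 and 114 CPM in WT mice, 93.3, 76 and 85.7 CPM in HSA-LR mice and 142, 92.5 and 89.7 CPM in treated mice, with log2 FC of −0.22 and 0.35 that were not called (adjusted P = 0.6 and 0.389). The quadriceps decrease was lost without WT mouse 1 or 3 or HSA-LR mouse 1 or 3 (−0.45 to −0.39, adjusted P = 0.123 to 0.165). The increase on treatment was lost without treated mouse 1 or 2 or any HSA-LR mouse (0.37 to 0.54, adjusted P = 0.114 to 0.219) and with the replicate block (0.46, adjusted P = 0.118). With the slow fiber covariate, neither Eci1 change was called (−0.34, adjusted P = 0.153; 0.26, adjusted P = 0.41).

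**Figure D3:**
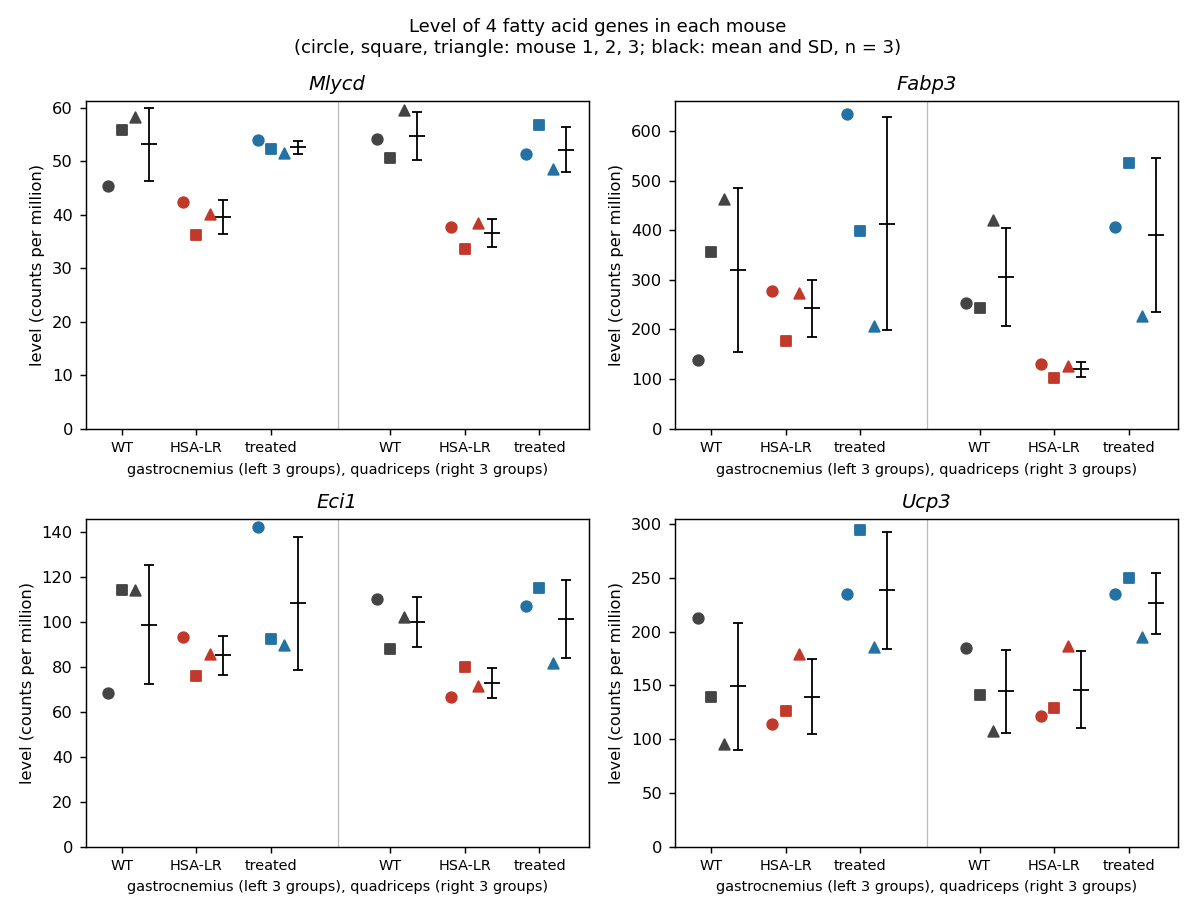
Level in CPM of Mlycd, Fabp3, Eci1 and Ucp3 in each mouse (symbols), with the mean and SD of 3 mice in black, gastrocnemius groups on the left of each panel and quadriceps groups on the right. HSA-LR mice lie below the other groups for Mlycd in both muscles and for Fabp3 and Eci1 in the quadriceps, and treated mice lie above HSA-LR mice for Ucp3 in both.

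The libraries that carried Ucp1 and Cidea were unevenly spread, since 2 of the 3 HSA-LR quadriceps and 1 WT quadriceps exceeded 50 CPM. When those 3 were left out, 1 HSA-LR library remained, assumed to vary like the other groups. The log2 FC of Mlycd was then −0.51 in HSA-LR mice and 0.42 on treatment, that of Fabp3 −1.38 and 1.60, and that of Eci1 −0.40 and 0.48. HSA-LR mice did not overlap with either group for these genes, so leaving libraries out could hardly have turned a sign. Calls are not given for this fit, since 1 HSA-LR library cannot show the spread of its group. With the Ucp1 and Cidea level as a covariate, Mlycd and Fabp3 stayed called in both quadriceps comparisons (−0.59 and 0.45; −1.37 and 1.60). Eci1 stayed called in HSA-LR mice (−0.43, adjusted P = 0.065) and was not called on treatment (0.57, adjusted P = 0.125). The gastrocnemius increase of Mlycd on treatment was not called with this covariate (0.41, adjusted P = 0.121). In the gastrocnemius, Ucp1 and Cidea summed to 14.8 CPM in treated mouse 3 and to 0.585 to 1.77 CPM in the other libraries. The covariate there mainly set that 1 library apart.

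Among the genes of uptake, lipoprotein lipase (Lpl) and CD36 (Cd36) were not called in any comparison. Quadriceps Lpl was 526, 362 and 542 CPM in WT mice, 358, 388 and 190 CPM in HSA-LR mice and 463, 569 and 194 CPM in treated mice, so each group held values from the range of the others. Its log2 FC was −0.61 (SE 0.39) in HSA-LR mice and 0.38 (SE 0.38) on treatment. Acsl1, which couples long-chain fatty acids to coenzyme A, had log2 FC of 0.15 in the gastrocnemius and −0.04 in the quadriceps of HSA-LR mice. For the carnitine shuttle, Cpt1a, Slc25a20 and Cpt2 had log2 FC between −0.30 and −0.08 in HSA-LR mice of the 2 muscles, and none was called in the main fit. Cpt1a was at 7.1 to 11.3 CPM over all libraries. Cpt1b, also of this shuttle, was not analysed here, so the shuttle was covered only in part.

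Enzymes of the mitochondrial spiral were close to one another in HSA-LR mice. Acadvl, Acadl, Acadm and Acads, which start the spiral for successively shorter chains, had quadriceps log2 FC of −0.41, −0.46, −0.20 and −0.30. The trifunctional protein subunits Hadha and Hadhb had −0.40 and −0.43, and the thiolase Acaa2 −0.36, while Echs1 and Hadh, the short-chain hydratase and hydroxyacyl-CoA dehydrogenase, had −0.26 and −0.15. None of these 9 was called in the main edgeR fit (the smallest adjusted P was 0.11, for Hadha). DESeq2 called Acadl, Acadvl and Hadha lower, and edgeR with RLE size factors called Hadha. Counting only the largest exon bin of each gene, edgeR called Acadl and Hadha lower. With the Ucp1 and Cidea covariate it called Hadha and Hadhb lower. Of all genes, 11.6% were called lower by DESeq2 and 9.7% with RLE size factors. With the largest exon bin 10.1% were, and with the covariate 11.4%. On treatment, Acadl had 0.45, Hadha 0.27 and Acadvl 0.26, and Acadm, Acads and Echs1 had −0.02, −0.02 and −0.09. The main edgeR fit again called none of the 9 and DESeq2 called Acadl, beside 9.74% of all genes called higher by DESeq2. With the Ucp1 and Cidea covariate, edgeR called Hadh, Hadha and Hadhb higher, beside 2.09% of all genes. That covariate was chosen after the data were seen. Etfa and Etfdh, which hand the electrons on, had −0.26 and −0.29 in HSA-LR quadriceps, the dienoyl-CoA reductase Decr1 had −0.24, and the isomerase Eci2 was among the few members above 0 (0.16 in the gastrocnemius, 0.11 in the quadriceps). Without WT mouse 2 in the quadriceps, Acadvl, Echs1, Etfa and Hadha were called lower beside Mlycd, Fabp3 and Eci1, and without HSA-LR mouse 2 Acadl, Acadvl, Hadha and Hadhb were, which made 7 members in each case. The shares of all genes called in these fits are not given, so whether these counts are particular to the members cannot be told.

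Ucp3 encodes the muscle uncoupling protein. Its gastrocnemius level was 213, 139 and 95.6 CPM in WT mice, 114, 126 and 179 CPM in HSA-LR mice and 235, 295 and 186 CPM in treated mice. In the quadriceps it was 185, 141 and 108 CPM in WT mice, 122, 129 and 187 CPM in HSA-LR mice and 235, 250 and 195 CPM in treated mice. WT and HSA-LR mice overlapped in both muscles, and each treated mouse lay above each HSA-LR mouse. The log2 FC on treatment was 0.78 (SE 0.29, adjusted P = 0.159) and 0.62 (SE 0.22, adjusted P = 0.117), which the main edgeR fit did not call. DESeq2 called Ucp3 in both muscles, and so did edgeR when fitted to only the groups compared. Among the members it also had the highest log2 FC of treated against WT mice, 0.68 in the gastrocnemius and 0.65 in the quadriceps (adjusted P = 0.463 and 0.275).

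Lipe, a gene of lipolysis, was 43.8, 41.4 and 40.9 CPM in WT gastrocnemius, 25.5, 32.4 and 32.2 CPM in HSA-LR mice and 36.8, 34.7 and 61.7 CPM in treated mice. Its gastrocnemius log2 FC was −0.50 (SE 0.20, adjusted P = 0.167) in HSA-LR mice and 0.57 (SE 0.20, adjusted P = 0.141) on treatment, where DESeq2 called it. In the quadriceps Lipe was 252, 62.7 and 63 CPM in WT mice, 156, 231 and 19.1 CPM in HSA-LR mice and 42.7, 50.1 and 25.5 CPM in treated mice. The 3 highest of these are the same 3 libraries that were high in Ucp1 and Cidea, and 6 adipocyte markers summed to 606, 537 and 690 CPM there against 26.6 to 261 CPM in the other quadriceps. Across the gastrocnemius, those 6 markers summed to 104 to 167 CPM in WT mice, 42.8 to 109 CPM in HSA-LR mice and 51.3 to 254 CPM in treated mice, with treated mouse 3 the highest for them and for Lipe. With the Ucp1 and Cidea level as a covariate, Lipe was called lower in HSA-LR gastrocnemius, where the covariate mainly set treated mouse 3 apart, and was not called in the quadriceps.

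**Figure D4:**
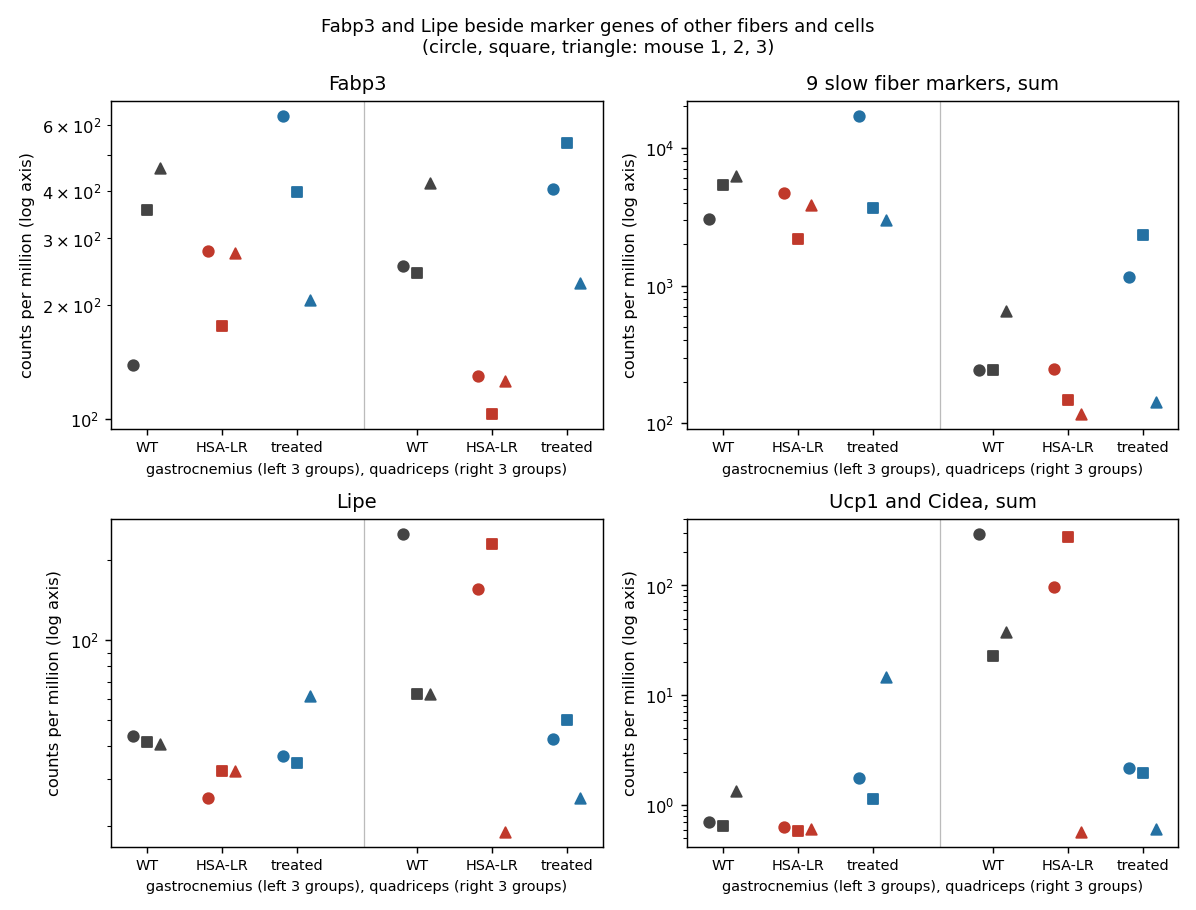
CPM on a log axis of Fabp3, the summed slow fiber markers, Lipe, and the sum of Ucp1 and Cidea in each mouse (symbols), gastrocnemius on the left and quadriceps on the right of each panel. The 3 quadriceps highest in Lipe are the 3 highest in Ucp1 and Cidea, and treated mice 1 and 2, the quadriceps highest in slow fiber markers, hold 406 and 536 CPM of Fabp3.

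Pnpla2, the lipase that starts triglyceride breakdown, had gastrocnemius values of 387, 396 and 313 CPM in treated mice, all above the 282, 272 and 301 CPM of HSA-LR mice (log2 FC 0.36, SE 0.14, adjusted P = 0.154). The peroxisomal thiolase Acaa1a behaved likewise there, with 51, 46.7 and 55.9 CPM against 42.5, 40.3 and 40 CPM (log2 FC 0.33, SE 0.12, adjusted P = 0.13). The main edgeR fit called neither and DESeq2 called both. Fitted to only the groups compared, edgeR called Acaa1a. Pnpla2 in the quadriceps was 623, 297 and 376 CPM in WT mice, 433, 559 and 258 CPM in HSA-LR mice and 332, 450 and 268 CPM in treated mice, with overlap of all groups. In the quadriceps, the PPAR gene Ppard reached 39.3, 38.8 and 32.2 CPM in treated mice against 24.5, 26.6 and 31.3 CPM in HSA-LR mice (log2 FC 0.41, SE 0.16, adjusted P = 0.14). DESeq2 called Ppard and the main edgeR fit did not, while edgeR fitted to only the groups compared did. Ppara spanned 1.32 to 12 CPM among treated gastrocnemius libraries and had log2 FC of −0.13 and −0.77 in HSA-LR gastrocnemius and quadriceps with SE of 0.63 and 0.56. Plin5, the lowest in WT mouse 1 and treated mouse 3 of the gastrocnemius, had −0.76 (SE 0.52) and −1.30 (SE 0.60) in the same comparisons. Pdk4, the kinase that turns off pyruvate dehydrogenase when fat is burned, had log2 FC between −0.02 and 0.25 in HSA-LR mice and on treatment in both muscles, with SE of 0.31 to 0.35. Acot2, a mitochondrial thioesterase whose reads may be shared with its close copy Acot1, had 0.60 and 0.66 on treatment, which the main edgeR fit did not call and DESeq2 called in the quadriceps.

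The gastrocnemius libraries high in erythroid markers, WT mouse 1 and treated mouse 3, were lowest in their groups for 27 and 26 members. HSA-LR mouse 2, lowest in its group for 24, was not high in these markers (672 CPM). Without WT mouse 1 and treated mouse 3, Slc25a20, Acads, Plin5, Lipe and Mlycd were called lower in HSA-LR mice, 5 members where 1 had been called, beside 7.93% of all genes called lower in that setting. Slc25a20, Fabp3, Ucp3, Ppara, Acot2, Plin5, Pnpla2 and Mlycd were then called higher on treatment, 8 members where 1 had been called, beside 4.32% called higher. Leaving out the lowest WT and the lowest treated library raised both groups against HSA-LR mice for most members. The higher counts are therefore no separate evidence of a change. This alternative was chosen after the values were seen, and the part of blood in the values of the members was not tested.

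No member was called in treated against WT mice, where 0.595% and 0.448% of genes were called higher and lower in the gastrocnemius and 1.10% and 0.302% in the quadriceps. At an unadjusted P under 0.05, 2 members passed edgeR in each muscle. Of all genes, 1641 of 15625 passed in the gastrocnemius and 1947 of 15574 in the quadriceps. DESeq2 called no member in the gastrocnemius and Ucp3 in the quadriceps, and limma voom called no member. The median log2 FC of the members was 0.09 and −0.12, with 24 above 0 in the gastrocnemius and 22 below 0 in the quadriceps. No member showed a difference between the muscles in the change of HSA-LR mice or of treated mice. In that test 0% of the 16167 genes were called either time. An unadjusted P under 0.05 was seen for 0 and 1 members, and for 710 and 1271 of all genes. DESeq2 called no member in either. In WT mice, 28 members had a higher level in the quadriceps than in the gastrocnemius (median log2 FC 0.27, all genes 0.01). None was called by edgeR or DESeq2, and edgeR called 0.297% of genes. An unadjusted P under 0.05 was seen for 3 members and for 1437 of the 16167 genes.

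A different kind of change was found inside Acadm, the medium-chain acyl-CoA dehydrogenase (chr3:153922357-153944632, minus strand), whose total level was not called. Exon bin use, the count of a bin relative to the other bins of its gene, was tested for 546 bins of the members in the gastrocnemius and 550 in the quadriceps. A bin of 26 bases at chr3:153937784-153937809, directly before exon 6 of the main transcript, was called. It is annotated only in a noncoding transcript of the retained intron class, as the start of that transcript, and its bases in capitals run into the first 4 bases of exon 6 in lower case, read on the minus strand from the GENCODE transcript. The stretch is shown because it carries the one exon change called in both muscles and both comparisons.

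Acadm bin 17 and start of exon 6, GRCm38 chr3:153937780-153937809, minus strand: GTCTTAATGTTAATCTCCCTTGGTAGcaaa

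The bin held 7, 12 and 12 counts in WT gastrocnemius, 92, 71 and 79 in HSA-LR mice and 22, 28 and 21 in treated mice. In the quadriceps it held 12, 6 and 10 counts in WT mice, 65, 86 and 86 in HSA-LR mice and 28, 23 and 24 in treated mice. No 2 of the 3 groups overlapped in either muscle. As a share of the counts on exon 6, which were 1826 to 3973 per library, it was 0.32% ± 0.0155 (SD, n = 3) in WT gastrocnemius, 2.76% ± 0.203 in untreated HSA-LR mice and 0.905% ± 0.312 in treated ones. The quadriceps shares were 0.317% ± 0.0795, 2.93% ± 0.62 and 0.976% ± 0.212. The reads that include these bases were therefore a small part of Acadm RNA in every mouse.

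Use of the bin rose by 3.11 on the log2 scale in HSA-LR gastrocnemius (adjusted P = 7.31e-13) and by 3.18 in the quadriceps (adjusted P = 8.95e-13), and it fell by 1.73 (adjusted P = 6.90e-05) and 1.56 (adjusted P = 0.00498) on treatment. Among the bins of all genes, 0.819%, 0.284%, 0.309% and 0.168% were called in these 4 comparisons. Treated mice were above WT mice by 1.38 and 1.61 (unadjusted P = 4.13e-04 and 9.96e-05), which was not called (adjusted P = 0.456 and 0.207); there 0.0654% and 0.0353% of bins were called, and none of the members. The decrease on treatment in the quadriceps was not called without treated mouse 2 (−1.37, adjusted P = 0.309). Leaving out WT mouse 2 or 3 left the increase in HSA-LR mice called (3.02 to 3.23).

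The bins at either side were not called. Exon 6 itself had a change of use of 0.02 and 0.04 in HSA-LR mice. At the other end of the same intron, a bin of 259 bases next to exon 5 held 6, 12 and 11 counts in WT gastrocnemius, 13, 17 and 17 in HSA-LR mice and 22, 13 and 4 in treated mice. In the quadriceps it held 15, 12 and 5 counts in WT mice, 11, 32 and 18 in HSA-LR mice and 9, 12 and 3 in treated mice. Its use changed by 0.85 and 1.0 in HSA-LR mice (unadjusted P = 0.0539 and 0.0307), and on treatment by −0.28 and −1.21 (unadjusted P = 0.503 and 0.0121), the same signs as for the short bin, and none was called. Although 259 bases long against 26, it held fewer counts than the short bin in each of the 6 HSA-LR libraries.

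**Figure D5:**
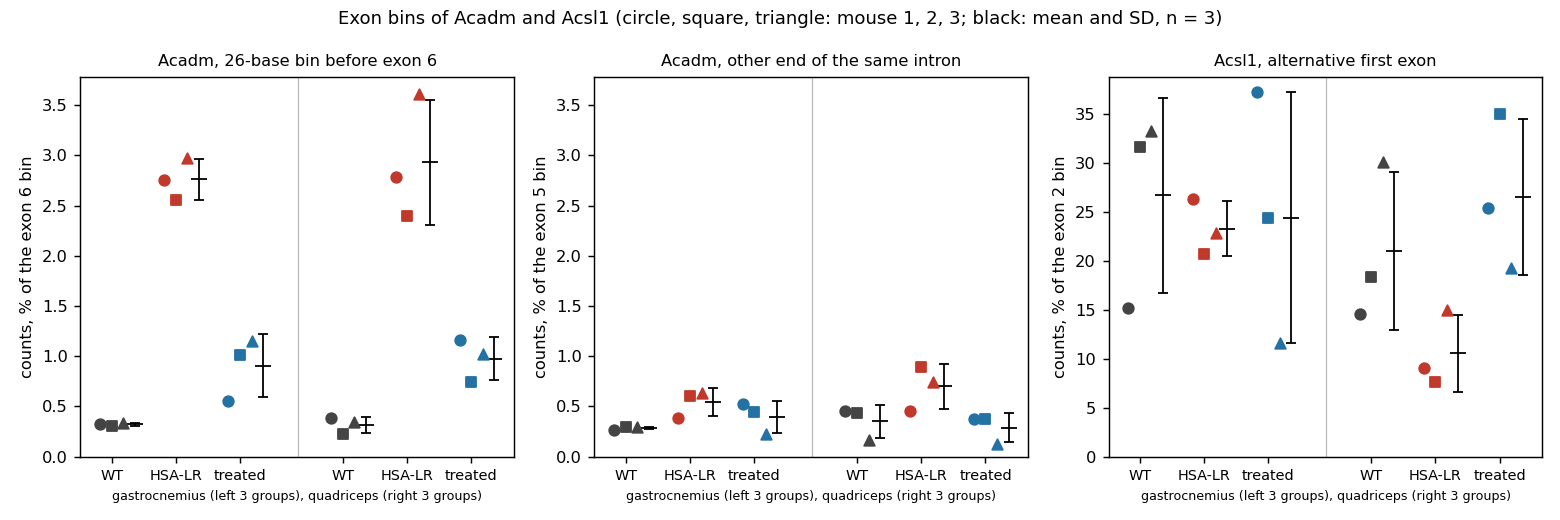
Counts of 3 exon bins as a percentage of the counts of the next exon, per mouse (symbols) with mean and SD of 3 mice in black: the 26-base Acadm bin over exon 6, the bin at the other end of that intron over exon 5, and an alternative first exon of Acsl1 over exon 2. The left panel puts HSA-LR mice at 2.4% to 3.61%, WT mice at 0.228% to 0.381% and treated mice at 0.554% to 1.16%.

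In Acsl1, a bin of 111 bases (chr8:46491051-46491161, plus strand) that belongs to an alternative first exon in the 5′ UTR was used more in treated than in HSA-LR quadriceps (log2 change 1.59, adjusted P = 0.0547). It held 103, 85 and 179 counts in WT mice, 55, 69 and 64 in HSA-LR mice and 158, 362 and 97 in treated mice. As a share of exon 2, that was 21% ± 8.09, 10.6% ± 3.91 and 26.6% ± 7.96 (SD, n = 3), and WT and HSA-LR mice overlapped. The main first exon, in a 48-base bin, had a change of −0.47 in the same comparison and was not called, and since use is relative, the test does not tell which of the bins of Acsl1 changed. In the gastrocnemius the Acsl1 bin was at 0.18 on treatment (adjusted P = 1), and the treated mice ranged from 11.6% to 37.2%, lowest in mouse 3 and highest in mouse 1, the library richest in slow fiber markers. The quadriceps call was lost without WT mouse 3, HSA-LR mouse 1 or 2, or treated mouse 1 or 2 (adjusted P = 0.127 to 0.716) and with limma voom (1.41, adjusted P = 0.829).

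Other genes of fatty acid metabolism, 65 tested of a wider list that holds no member, were described in the same way. In HSA-LR mice, 3 rose and 6 fell in the gastrocnemius, and 4 rose and 12 fell in the quadriceps, beside 8.60% and 6.94% of all genes called higher and lower in the gastrocnemius and 11.0% and 9.31% in the quadriceps. On treatment, 3 rose and 3 fell in the gastrocnemius, and 7 rose and 3 fell in the quadriceps, beside 4.49% and 5.53% of all genes and then 6.54% and 7.22%. The acyl-CoA thioesterase Acot7 fell by 1.33 (adjusted P = 3.14e-04) and 1.44 (adjusted P = 1.39e-04) in the gastrocnemius and quadriceps of HSA-LR mice and rose by 1.10 and 1.31 on treatment (adjusted P = 0.00209 and 8.01e-04). Pdk3, another pyruvate dehydrogenase kinase, rose by 1.39 and 1.89 in HSA-LR mice and fell by 0.91 and 1.01 on treatment. The thioesterase Acot9 rose by 0.60 and 1.15 and fell by 0.67 and 1.07. The partner receptor of the PPARs Rxra fell by 0.65 in HSA-LR gastrocnemius and rose by 0.51 on treatment, and Scp2, a peroxisomal sterol carrier and thiolase, fell by 0.40 and rose by 0.34. Acsl6 rose by 0.74 in HSA-LR gastrocnemius, and Ehhadh of the peroxisome fell by 0.75 on treatment. In the quadriceps, Rxrg fell by 0.85 and the phosphatidate phosphatase Lpin1 by 0.82 in HSA-LR mice, Ucp2 rose by 1.40, and on treatment Lpin1 rose by 0.95, Ucp2 fell by 1.52 and the carnitine acetyltransferase Crat rose by 0.33. Ucp2 was at 69.2, 29.9 and 51.5 CPM in WT quadriceps, 143, 110 and 142 CPM in HSA-LR mice and 50.9, 57.3 and 30.9 CPM in treated mice, and the macrophage markers given above moved the same way there, a relation that was not tested. Rxrg was the 1 gene of the wider list called in treated against WT quadriceps (−0.52, adjusted P = 0.0809).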

How the data were processed

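RNA from 18 muscle samples was sequenced by the study, and the authors deposited unnormalized counts, 1 per exon bin, for each library. The submitters' processing notes list CASAVA, HISAT and featureCounts 1.5.0, and name GRCm38. What each tool did is not given there. The layout of the tables is that of DEXSeq's counting script, in which a read pair over several bins adds to each, so gene sums can exceed the number of pairs. Entries naming no gene (2.82% to 4.14% of a library) were left out.

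Bins were summed per gene (46725 genes, 46520 with a symbol in GENCODE M21) and read in R 4.3.3 with edgeR 4.0.16. Genes kept by filterByExpr (minimum count 10, minimum total 15) were normalized by TMM, and CPM are on that scale, with 1 set of factors over the 18 libraries. The 9 libraries of a muscle entered 1 glmQLFit, and the 18 libraries 1 fit for differences between muscles, with Benjamini-Hochberg adjustment over all genes. The values between muscles come from a fit without the mouse as a block. With the mouse as a block, no member was called between muscles either. SE is the absolute log2 FC over the root of the F statistic. Bin use was tested with diffSpliceDGE. DESeq2 1.42.0, limma 3.58.1, other scalings and filters, the replicate block, leaving out each mouse and a slow fiber covariate were alternatives. Those on Ucp1 and Cidea (over 50 CPM) and erythroid markers (over 2000 CPM) were chosen after seeing the data, and the steps were tested on simulated data, in which most bins called falsely lay in genes where another bin had been changed. A p-value weighs a difference between groups against the spread among mice within groups, which is pooled over the groups of a fit, with 3 mice per group.

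The members and gene lists were chosen with earlier results of these data known. By rule, every member is accounted for, called members are given mouse by mouse, and the wider list is named by its 3 smallest P values per direction and comparison. Gene lengths matched the annotation for 25 members. The muscles of a mouse correlated in their deviations from group means with a median r of 0.215 (0.0645 to 0.511 over 9 mice, 7 of them over 0.1), and mice of different groups share only a number.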

Additional observations from a re-analysis of the deposited data

How the results depend on the processing

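In HSA-LR against WT gastrocnemius, 1 member was called, lower, beside 6.94% of all genes called lower. The count was 2 with only the groups compared (9.68% of all genes lower). It was also 2 with the slow fiber covariate (8.47%) or with the Ucp1 and Cidea covariate (10.1%). Without the libraries high in erythroid markers it was 5 (7.93%). In treated against HSA-LR gastrocnemius, 1 member was called, higher, beside 4.49% of all genes called higher. The count was 5 with DESeq2 (7.24% of all genes higher) and 3 with only the groups compared (3.76%). It was 2 with the slow fiber covariate (6.22%) and 0 with the Ucp1 and Cidea covariate (3.5%). Without the libraries high in erythroid markers it was 8 (4.32%). Those libraries were the lowest of their groups for most members, so these counts of 5 and 8 are no separate evidence of a change. In HSA-LR against WT quadriceps, 3 members were called, lower, beside 9.31% of all genes called lower. The count was 6 with DESeq2 (11.6% of all genes lower), 6 with the largest exon bin (10.1%) and 6 with the Ucp1 and Cidea covariate (11.4%). In treated against HSA-LR quadriceps, 3 members were called, higher, beside 6.54% of all genes called higher. The count was 7 with DESeq2 (9.74% of all genes higher) and 5 with only the groups compared (6.77%). It was 5 with the Ucp1 and Cidea covariate (2.09%) and 1 with the slow fiber covariate (3.13%). Counts are not given without the quadriceps libraries high in Ucp1 and Cidea, a setting that leaves 1 HSA-LR library. DESeq2 called 1 member, Ucp3, higher in treated against WT quadriceps, beside 3.03% of all genes called higher. The cause of these differences was not tested.

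When each mouse was left out in turn, the count ranged from 0 to 2 and from 0 to 3 in the first 2 of these comparisons, and from 2 to 7 and from 2 to 5 in the quadriceps, with 7 when HSA-LR mouse 2 or WT mouse 2 was left out and 5 when HSA-LR mouse 3 or WT mouse 3 was, which in the first case were 4 higher and 1 lower (Lipe). It stayed at 0 for treated against WT mice and for the comparisons between muscles. The shares of all genes called with a mouse left out are not given. Exon bins called ranged from 1 to 1 and from 1 to 3 in the gastrocnemius, from 1 to 1 and from 0 to 3 in the quadriceps, and from 0 to 1 in treated against WT gastrocnemius. A filter of 10 counts in every library removes the Acadm bin, which held 6 or 7 counts in some WT mice, and left 0, 0 and 0 bins called in both HSA-LR comparisons and in treated gastrocnemius, and 1 (Acsl1) in treated quadriceps. With limma voom, 1 bin (Acadm) was called in the latter.

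With the replicate number as a replicate block, the fits called 1 and 0 members in HSA-LR and treated gastrocnemius, 3 and 2 in the quadriceps, and 1 Acadm bin in treated against WT quadriceps. Of all genes, 4.78% were then called lower in HSA-LR gastrocnemius and 2.31% higher on treatment, and 8.14% and 5.5% in the quadriceps. Mice of different groups share only a number: their deviations from group means had a median r of -0.0646 in the gastrocnemius and 0.0575 in the quadriceps over 9 pairs each. No called change turned its sign under these settings. The groups of these changes did not overlap, so leaving mice out could hardly have turned a sign. The 3 mice per group limit the size of change that could be called.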
